A study of Homo sapiens with 12 samples.

Results

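The chromosome 19 zinc-finger genes examined here are protein-coding genes whose symbol is ZNF followed by a number and whose annotated position is on human chromosome 19. Members had to average at least 1 CPM (counts per 1000000 counts in the library) in each of 2 experiments. Of the 61906 genes in each count table, 251 were such chromosome 19 genes and 150 of these (59.8%) reached the limit. Of the other 101 genes, 38 had no count in any library, and 7 passed the limit in 1 of the experiments only. The members were thus chosen by their mean level, and the rule itself uses no change between groups.

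RNA was sequenced from MOLM-14, a human acute myeloid leukemia cell line of monocytic type. In the knockdown experiment, cells carrying a lentivirus for an shRNA against DDX5 (shDDX5) were set against cells carrying one for a control shRNA (shControl), both at 96 hours after infection. In the drug experiment, cells given RX-5902 at 100 nM were set against cells given 0.1% DMSO, both for 6 hours. RX-5902 is a compound known as a ligand of phosphorylated DDX5, which is a DEAD-box RNA helicase, and each of the 4 groups had 3 libraries labelled as biological replicates. The experiments share no library, and they differ in agent, time and control. The number of shRNA sequences against DDX5 is not given in the sources used here.

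Most zinc-finger proteins of this kind bind DNA through a row of C2H2 fingers, each of which holds a zinc ion between a pair of cysteines and a pair of histidines. In many of them a KRAB domain ahead of the fingers recruits the corepressor TRIM28, which brings in the histone methyltransferase SETDB1 and heterochromatin protein 1, and this silences transposable elements. The genes arose by tandem duplication and lie in clusters on chromosome 19, where their own 3' coding exons are known to carry the same repressive histone mark.

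DDX5 RNA checked the knockdown labels. It averaged 161 ± 2.21 CPM in shDDX5 libraries and 734 ± 19 CPM in shControl libraries (SD, n = 3 each), a log2 fold change of -2.19 (SE 0.08; edgeR adjusted p = 3.44e-06). Under RX-5902 it averaged 1066 ± 42.2 CPM, against 862 ± 6.89 CPM in DMSO (log2 fold change 0.31; edgeR adjusted p = 1.47e-08). Library totals were 17603589 to 19674098 counts for the knockdown and 20264250 to 20367575 counts for the drug. The 12 fixed markers of a monocytic leukemia line were at 1 CPM or more in every library, and erythroid markers summed to at most 0.0479 CPM. The 12 markers summed to 13620 to 15010 CPM in shDDX5 libraries, against 4324 to 4651 CPM in shControl libraries, of which lysozyme (LYZ) gave a mean of 12910 CPM in shDDX5 and 3411 CPM in shControl libraries. The means of MEIS1, HOXA9 and FLT3 were lower in shDDX5 libraries, at 3.01, 10.1 and 269 CPM, against 20.02, 31.1 and 382 CPM in shControl libraries. Those of CSF1R, SPI1, CD4, CEBPE, ITGAM, MPO, CEBPA and CD33 were higher in shDDX5 libraries, as was LYZ. Under RX-5902 the markers summed to 1305 to 1323 CPM, against 1477 to 1527 CPM in DMSO libraries. The means of LYZ, FLT3, MPO, CEBPA, CD33, CEBPE and CD4 were lower under RX-5902, and those of MEIS1, HOXA9, CSF1R, ITGAM and SPI1 were higher. Among other cell types, the 5 T-cell markers summed to 16.3 to 22.6 CPM in shDDX5, 23.2 to 25.6 CPM in shControl, 50.7 to 53.4 CPM in RX-5902 and 20.5 to 21.9 CPM in DMSO libraries, nearly all of it TRAC. The 4 fibroblast markers summed to 3.86 to 6.57 CPM in shDDX5 and 0.986 to 1.19 CPM in shControl libraries, and the 5 epithelial markers to 5.49 to 7.44 CPM in shDDX5 and 3.43 to 3.65 CPM in shControl libraries. Most of the fibroblast rise was COL1A1, with means of 4.76 CPM in shDDX5 and 0.577 CPM in shControl libraries, while PDGFRA was lower. Nearly all of the epithelial sum was KRT8, with means of 6.18 CPM in shDDX5 and 3.41 CPM in shControl libraries. The part of these shifts in the changes of the members was not tested. Fewer cells of a type and less RNA per cell cannot be told apart in these bulk libraries. The library shDDX5 replicate 1 stood apart from its replicates, with a chi-square per gene of 46.3 and 46.4 against them, while other replicate pairs lay between 1.68 and 5.93. The 150 members took 0.234% of the counts in that library, 0.282% and 0.274% in the other shDDX5 libraries and 0.285 to 0.293% in shControl libraries. In RX-5902 libraries they took 0.282 to 0.299%, against 0.282 to 0.298% in DMSO libraries. All levels below are CPM scaled by edgeR's TMM factors within an experiment, and a member was called where edgeR's quasi-likelihood test gave an adjusted p under 0.05 over all genes tested.

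The promoters of the members were read from RefSeq (GRCh38.p14), as windows from 250 bases before to 50 bases after a transcription start. The table held 169 windows for 134 of the 150 members, all on chromosome 19. A member promoter held the word CCGGAAG, the core recognised by transcription factors of the ETS family, on either strand in 69 of 169 windows (40.8%). The same word was in 12.8% of the 22199 windows of all protein-coding genes, in 18.6% of those of protein-coding genes at 1 CPM or more and in 30.9% of the 220 windows of ZNF genes on other chromosomes. It was in 40.5% of the windows of members called higher after DDX5 knockdown and in 49.0% of those called lower. For RX-5902 these shares were 35.9% of windows of members called higher and 33.9% of those called lower. Of these, 4 promoters are printed as the 250 bases before the start, from 5′ to 3′ on the gene's strand, with the ETS word or its reverse complement in capitals. They belong to the member with the largest called rise and the largest called fall in each experiment among those with 1 window and the word in its 250 bases before the start. ZNF579 (chr19:55580849-55581098, minus strand) and ZNF180 (chr19:44500523-44500772, minus strand) are shown for the knockdown, and ZNF846 (chr19:9768739-9768988, minus strand) and ZNF587B (chr19:57830049-57830298, plus strand) for RX-5902.
ZNF579: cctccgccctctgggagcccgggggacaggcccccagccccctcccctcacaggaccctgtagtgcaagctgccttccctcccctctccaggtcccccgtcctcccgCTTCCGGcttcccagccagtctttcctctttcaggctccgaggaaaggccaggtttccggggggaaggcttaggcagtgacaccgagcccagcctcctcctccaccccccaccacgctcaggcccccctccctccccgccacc
ZNF180: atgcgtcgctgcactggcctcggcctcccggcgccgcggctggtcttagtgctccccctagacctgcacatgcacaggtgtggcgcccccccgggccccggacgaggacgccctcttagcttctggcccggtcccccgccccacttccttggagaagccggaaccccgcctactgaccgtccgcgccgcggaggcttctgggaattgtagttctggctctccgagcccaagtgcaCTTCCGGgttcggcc
ZNF846: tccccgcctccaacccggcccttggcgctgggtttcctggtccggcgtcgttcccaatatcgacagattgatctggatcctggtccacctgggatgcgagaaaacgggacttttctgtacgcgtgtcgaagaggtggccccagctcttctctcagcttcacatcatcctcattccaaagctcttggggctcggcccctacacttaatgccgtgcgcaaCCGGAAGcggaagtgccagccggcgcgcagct
ZNF587B: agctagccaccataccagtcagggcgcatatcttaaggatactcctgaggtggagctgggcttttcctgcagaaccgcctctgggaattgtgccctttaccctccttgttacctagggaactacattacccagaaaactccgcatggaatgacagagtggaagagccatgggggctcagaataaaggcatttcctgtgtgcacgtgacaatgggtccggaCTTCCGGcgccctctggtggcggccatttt
Each of the 4 windows holds the word on 1 site. Its presence was required by the choice, so it says nothing about rises or falls. These are matches of letters and not measured binding sites. The other words searched, on both strands, each counted on its own whether or not it overlapped another, were the GC box GGGCGG (65.7% of member windows and 56.3% of protein-coding windows), the CCAAT box CCAAT (48.5% and 34.7%), the TATA word TATAAA (2.96% and 9.47%) and the E-box CACGTG (5.92% and 8.34%). The YY1 word AAGATGGC was in 5.92% of member windows and 3.53% of protein-coding windows, and the cyclic AMP response element TGACGTCA in 5.33% and 2.26%. The NRF1 word was in 1.78% of member windows and 1.5% of protein-coding windows, and the ZNF143 word in 1.78% and 0.306%. In windows of protein-coding genes at 1 CPM or more, the GC box was in 67.0%, so the members had no excess of it there. In the same windows the CCAAT box was in 35.1%, the TATA word in 5.92% and the E-box in 9.65%. The YY1 word was in 5.26% of them, the cyclic AMP response element in 3.00%, the NRF1 word in 2.09% and the ZNF143 word in 0.528%.

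Because the clusters arose by duplication, some members are close to identical in their finger exons, and a read from such a stretch cannot always be given to 1 gene. In GENCODE release 29 transcripts, 115 of the 150 members shared no 100-base window with a gene elsewhere, and 7 shared over 10% of their windows. For ZNF468 and ZNF320, 2 of these 7, the share comes from 1 transcript that GENCODE assigns to ZNF468 but places on exons of ZNF320. Coding stretches of 84 bases, each a finger with its linker, show 2 such pairs (GRCh38, gene strand, 5′ to 3′), with the bases that differ within the pair in capitals. ZNF443 (chr19:12430822-12430905, minus strand) and its neighbour ZNF799 (chr19:12391132-12391215, minus strand) differ here at 3 of 84 bases.
ZNF443: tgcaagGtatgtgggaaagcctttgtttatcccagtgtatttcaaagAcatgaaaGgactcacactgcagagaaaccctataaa
ZNF799: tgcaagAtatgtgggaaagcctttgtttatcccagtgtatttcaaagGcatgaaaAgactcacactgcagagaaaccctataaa
Over the 15 intact units of this length in ZNF443, the nearest unit of ZNF799 differed at 0 to 9 bases. ZNF417 (chr19:57908883-57908966, minus strand) and ZNF587 (chr19:57859724-57859807, plus strand) differ here at 1 base.
ZNF417: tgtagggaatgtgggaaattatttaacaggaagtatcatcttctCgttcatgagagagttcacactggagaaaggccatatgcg
ZNF587: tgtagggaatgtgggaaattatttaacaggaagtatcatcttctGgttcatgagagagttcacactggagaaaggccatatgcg
ZNF417 shared 24.1% of its 100-base windows with ZNF587, more than ZNF443 (14.4%) with ZNF799. Values of these genes are uncertain to the extent that reads were split or dropped in counting.

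The levels of the members are a description, since the mean level chose them. Per kilobase of annotated exons, ZNF146 was the highest at 59.0 CPM per kb over the 4 groups. It codes for a protein made up almost wholly of fingers. ZNF317 followed at 22.6 CPM per kb, then ZNF581 at 12.3, ZNF561 at 12.2 and ZNF480 at 12.0 CPM per kb. The order of the last 3 is not settled, since their ranges over the 12 libraries overlap. At the limit, the lower of the 2 table means was 1.05 CPM for ZNF433, 1.14 CPM for ZNF536, a repressor of neuronal differentiation, and 1.2 CPM for ZNF154, a gene known for promoter methylation in tumours. Just outside it lay ZNF837 at 0.870 CPM, ZNF382 at 0.796 CPM and ZNF878 at 0.755 CPM.

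After DDX5 knockdown, 35 of the 150 members were called higher and 45 lower, and 70 were not called. That is 53.3% called, beside 56.7% of all 14463 genes tested, with 28.4% of all genes higher and 28.3% lower. The median log2 fold change of the members was -0.10, beside -0.06 over the 10441 protein-coding genes at 1 CPM or more. Of the 191 ZNF genes on other chromosomes at the same limit, 48 were called higher and 55 lower, with a median of -0.05. The median of the members against the shControl mean was -0.18 in shDDX5 replicate 1 and -0.03 and -0.06 in replicates 2 and 3, on the log2 scale. Without replicate 1, 43 members were called higher and 54 lower.

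The largest called rise after knockdown was that of ZNF580 (chr19:55635016-55643470), a short gene of 3 fingers. It stood at 17.9, 14.8 and 16.1 CPM in shDDX5 libraries, against 4.88, 4.24 and 5.52 CPM in shControl libraries, 3.33-fold higher (log2 fold change 1.74, SE 0.13; edgeR adjusted p = 2.24e-05). All shDDX5 libraries were far above all shControl libraries, but exons of ZNF580 overlap those of ZNF581 and CCDC106 on the same strand. ZNF579, its neighbour without such an overlap, was at 25.2, 21.7 and 23.2 CPM in shDDX5 libraries, against 10.8, 12.3 and 10.7 CPM in shControl libraries (log2 fold change 1.06, SE 0.10; edgeR adjusted p = 6.72e-05). ZNF880, a KRAB gene at a low level, had 1.59, 1.98 and 2.66 CPM in shDDX5 libraries and 0.697, 1.03 and 1.04 CPM in shControl libraries (log2 fold change 1.17, SE 0.28; edgeR adjusted p = 0.00734). Its shDDX5 libraries spread widely, and its SE was the largest among the 8 members with the largest rises. ZNF627, a KRAB gene with 10 fingers, was at 50.1, 44.0 and 44.8 CPM in shDDX5 libraries and 23.6, 22 and 22.4 CPM in shControl libraries (log2 fold change 1.03, SE 0.09; edgeR adjusted p = 3.87e-05). ZNF561, the most abundant member of this group, had 108, 121 and 125 CPM in shDDX5 libraries, against 61.5, 60.6 and 56.0 CPM in shControl libraries (log2 fold change 0.99, SE 0.09; edgeR adjusted p = 4.72e-05). Both genes were about doubled with little spread, and ZNF561 shares no exon with another annotated gene. ZNF296 rose by 0.97 on the log2 scale, ZNF440 by 0.91 and ZNF547 by 0.90, with edgeR adjusted p of 0.000255, 0.00017 and 0.00126. ZNF296 is the human form of mouse Zfp296, known from pluripotent cells.

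Among the members that fell, ZNF114 (chr19:48270081-48287608) fell most, with 1.36, 1.13 and 1.46 CPM in shDDX5 libraries, against 3.73, 3.70 and 3.85 CPM in shControl libraries (log2 fold change -1.50, SE 0.17; edgeR adjusted p = 0.000174). ZNF790 (chr19:36817428-36850787) had 6.99, 7.24 and 6.16 CPM in shDDX5 libraries, against 19.2, 15.3 and 16.2 CPM in shControl libraries (log2 fold change -1.32, SE 0.13; edgeR adjusted p = 6.36e-05). In both genes every shDDX5 library was well below every shControl library, and both have an antisense gene that shares exon bases with them. ZNF468 (chr19:52838010-52857649) was at 9.14, 10.8 and 9.92 CPM in shDDX5 libraries and 23.1, 24.9 and 26.2 CPM in shControl libraries (log2 fold change -1.32, SE 0.10; edgeR adjusted p = 2.17e-05). Its exons do not overlap those of its neighbour ZNF320 in the deposited table, but they overlap those of ZNF28 on the same strand. ZNF443, whose finger is printed above, had 2.10, 2.04 and 1.93 CPM in shDDX5 libraries, against 3.88, 4.34 and 4.74 CPM in shControl libraries (log2 fold change -1.09, SE 0.16; edgeR adjusted p = 0.000618). Its near copy ZNF799 averaged 6.02 ± 1.08 CPM in shDDX5 libraries and 5.87 ± 0.483 CPM in shControl libraries (SD, n = 3 each) and was not called (edgeR adjusted p = 0.865). ZNF180, ZNF586, ZNF551 and ZNF493 fell by 1.13, 1.11, 0.96 and 0.94 on the log2 scale, with edgeR adjusted p between 0.000341 and 0.000733.

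**Figure D1:**
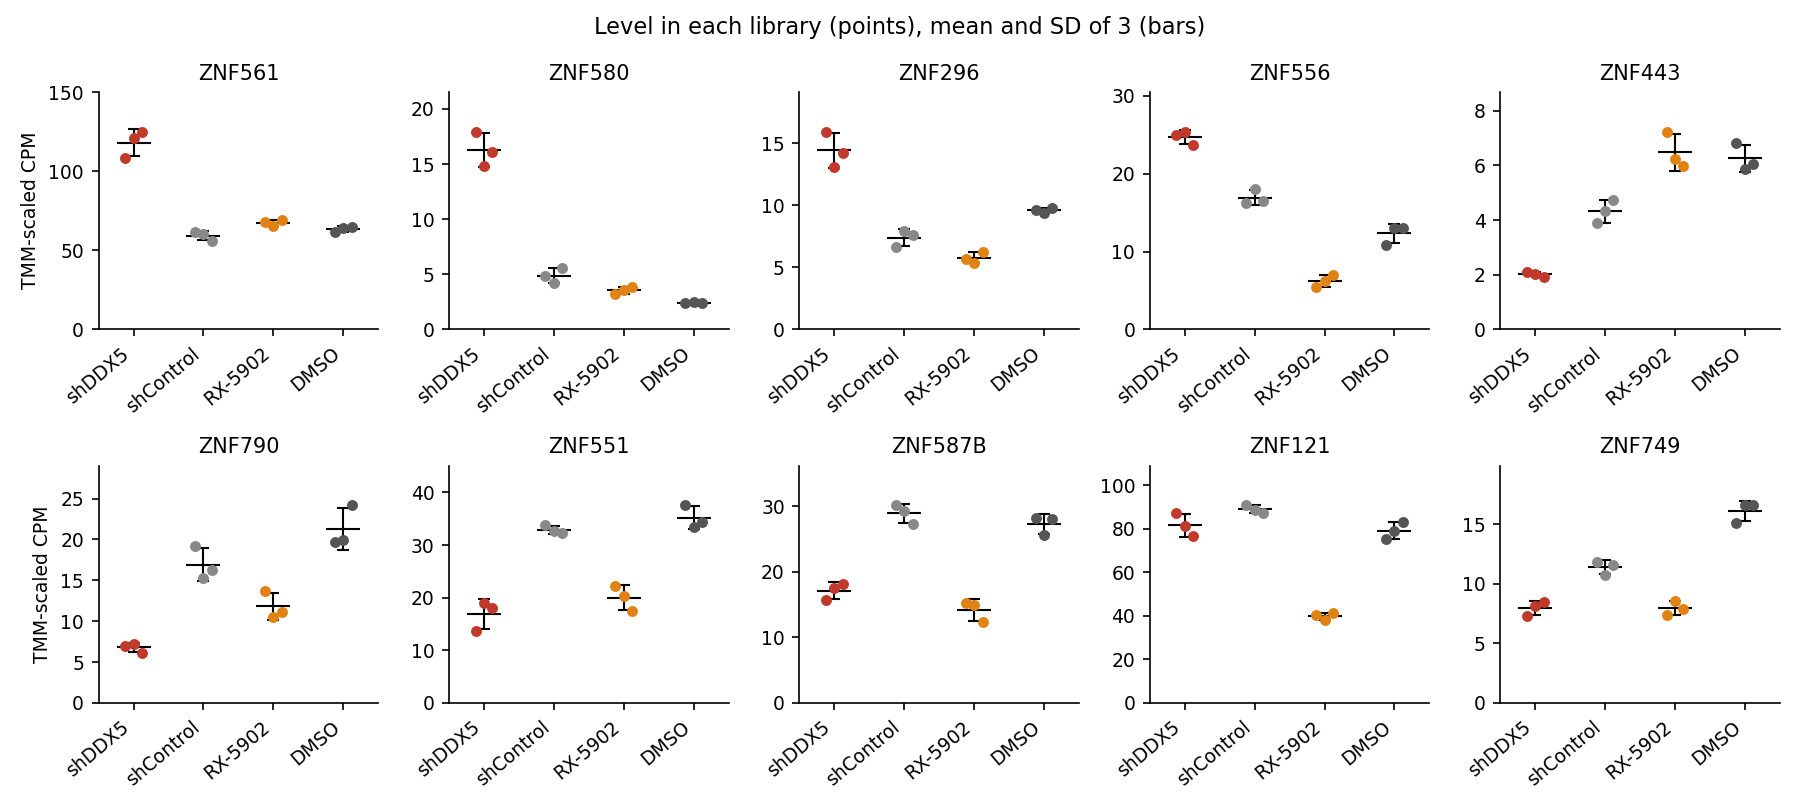
TMM-scaled CPM (vertical axes, each from 0) of 10 members in the 3 libraries of each group, as points, with the mean as a wide bar and the SD as an error bar. ZNF580 stands at 14.8 to 17.9 CPM in shDDX5 libraries and 4.24 to 5.52 CPM in shControl libraries, and ZNF121 at 38.1 to 41.1 CPM in RX-5902 libraries and 75.2 to 83.3 CPM in DMSO libraries.

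After 6 hours of RX-5902, 37 of the 150 members were called higher and 47 lower, and 66 were not called. That is 56.0% called, beside 64.1% of all 13941 genes tested, with 32.2% of all genes higher and 31.9% lower. The median log2 fold change was -0.01 for the members and also -0.01 for protein-coding genes at 1 CPM or more, of which 71.6% were called. Of the 191 ZNF genes on other chromosomes, 72 were called higher and 51 lower under RX-5902.

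ZNF749 (chr19:57435325-57447101) fell most under RX-5902, at 7.38, 8.53 and 7.91 CPM in RX-5902 libraries, against 15.1, 16.6 and 16.6 CPM in DMSO libraries (log2 fold change -1.02, SE 0.09; edgeR adjusted p = 3.38e-12). ZNF121 (chr19:9560329-9584504) was at 40.4, 38.1 and 41.1 CPM in RX-5902 libraries, against 75.2, 78.8 and 83.3 CPM in DMSO libraries (log2 fold change -0.99, SE 0.05; edgeR adjusted p = 9.37e-18). Both groups were tight for ZNF121, which shares no exon with another annotated gene. In the knockdown ZNF121 was not called, with a log2 fold change of -0.12 (edgeR adjusted p = 0.222), or -0.18 without shDDX5 replicate 1 (edgeR adjusted p = 0.00302), although every shDDX5 library lay below every shControl library. Even so, the difference between the experiments was called (0.85, SE 0.10; edgeR adjusted p = 6.67e-06). ZNF556, ZNF587B, ZNF154, ZNF790, ZNF551 and ZNF566 fell by 0.98, 0.94, 0.87, 0.85, 0.82 and 0.80 on the log2 scale. Of these 6, ZNF154 had the least secure value, at 0.772, 0.959 and 0.825 CPM in RX-5902 libraries and 1.77, 1.62 and 1.30 CPM in DMSO libraries (SE 0.24; edgeR adjusted p = 0.00189).

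The members with the largest rises under RX-5902 were mostly of low level. ZNF763 had 3.57, 2.35 and 2.67 CPM in RX-5902 libraries, against 1.67, 1.92 and 1.2 CPM in DMSO libraries (log2 fold change 0.84, SE 0.20; edgeR adjusted p = 0.000431). ZNF554 had 1.98, 2.59 and 2.52 CPM in RX-5902 libraries, against 1.77, 1.06 and 1.15 CPM in DMSO libraries (log2 fold change 0.83, SE 0.21; edgeR adjusted p = 0.000856). In both genes the lowest RX-5902 library lay close above the highest DMSO library. ZNF784 was better measured, at 8.64, 9.30 and 8.64 CPM in RX-5902 libraries and 5.46, 5.31 and 5.11 CPM in DMSO libraries (log2 fold change 0.74, SE 0.10; edgeR adjusted p = 1.93e-07). ZNF846 rose by 0.76, ZNF575 by 0.74, ZNF699 by 0.68, ZNF524 by 0.67 and ZNF653 by 0.62 on the log2 scale. Outside the largest changes, ZNF888 (log2 fold change 0.54) had 53.4, 50.4 and 48.6 CPM in RX-5902 libraries, against 33.6, 35.4 and 36.0 CPM in DMSO libraries, the smallest drug p in its cluster.

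Set side by side, 22 members were called lower in both experiments, 10 were called higher in both, 8 were higher after knockdown and lower under RX-5902, and 6 were lower after knockdown and higher under RX-5902. A further 32 members were called in neither. As shares these are 14.7% lower in both, 6.67% higher in both, 5.33% higher after knockdown and lower under RX-5902, and 4.0% the other way round. Over the 10441 protein-coding genes at 1 CPM or more the same shares were 14.9%, 11.0%, 8.09% and 9.97%, so the share lower in both is near the background. Across the 150 members the log2 fold changes of the experiments had a Pearson r of 0.33 and a Spearman rho of 0.33, beside 0.25 and 0.20 over the 191 ZNF genes on other chromosomes and 0.13 for both measures over the protein-coding genes. These are descriptions across genes, which are not independent replicates. The test of the difference, knockdown change minus drug change over all 12 libraries, called 29 members higher and 35 lower, 42.7% of the members, beside 52.7% of all 15386 genes tested.

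Among members that fell in both experiments, ZNF790, ZNF551 and ZNF587B had the largest shared changes, ranked by the smaller of the 2. ZNF551 (chr19:57681969-57717301) was at 13.6, 19 and 18.1 CPM in shDDX5 libraries, against 33.8, 32.6 and 32.2 CPM in shControl libraries. It was at 22.2, 20.3 and 17.5 CPM in RX-5902 libraries, against 37.6, 33.5 and 34.4 CPM in DMSO libraries. Its log2 fold changes were -0.96 and -0.82, and their difference of -0.16 was not called (edgeR adjusted p = 0.395). ZNF587B (chr19:57819721-57846238) was at 15.6, 17.5 and 18.1 CPM in shDDX5 libraries and 30.2, 29.3 and 27.2 CPM in shControl libraries. It was at 15.3, 14.9 and 12.3 CPM in RX-5902 libraries and 28.1, 25.6 and 28.1 CPM in DMSO libraries, so that no shDDX5 or RX-5902 library reached its controls. ZNF525, near the limit, changed by -0.92 (edgeR adjusted p = 0.0214) and -0.73 (edgeR adjusted p = 0.00347), and its knockdown call was lost without shDDX5 replicate 2 or without shControl replicate 1 or 3 (adjusted p of 0.0631, 0.0855 and 0.0587). ZNF554 and ZNF846 rose in both, by 0.71 and 0.89 after knockdown and by 0.83 and 0.76 under RX-5902.

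Opposite calls were clearest in ZNF296 and ZNF556. ZNF296 (chr19:45071500-45076478) was at 16, 13.1 and 14.2 CPM in shDDX5 libraries, against 6.62, 7.93 and 7.60 CPM in shControl libraries. It was at 5.69, 5.37 and 6.26 CPM in RX-5902 libraries, against 9.65, 9.36 and 9.78 CPM in DMSO libraries, and the difference of the changes was 1.68 on the log2 scale (SE 0.15; edgeR adjusted p = 6.97e-07). ZNF556 (chr19:2867335-2883445) was at 24.9, 25.4 and 23.7 CPM in shDDX5 libraries and 16.3, 18 and 16.5 CPM in shControl libraries. It was at 5.4, 6.23 and 7.04 CPM in RX-5902 libraries and 10.9, 13.1 and 13 CPM in DMSO libraries, with a difference of 1.51 (SE 0.15; edgeR adjusted p = 1.06e-06). ZNF526 and ZNF574, genes without a KRAB pattern that lie near each other outside the clusters, also rose after knockdown (0.65 and 0.51) and fell under RX-5902 (-0.63 and -0.45). ZNF714, a gene of cluster 4 at 24.8, 40.2 and 33.4 CPM in shDDX5 libraries and 62.8, 54.7 and 53.3 CPM in shControl libraries, went the other way, with 77.2, 75.8 and 73.4 CPM in RX-5902 libraries and 52.3, 53.3 and 61.2 CPM in DMSO libraries. Its difference was -1.26 (SE 0.17; edgeR adjusted p = 3.48e-05).

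**Figure D2:**
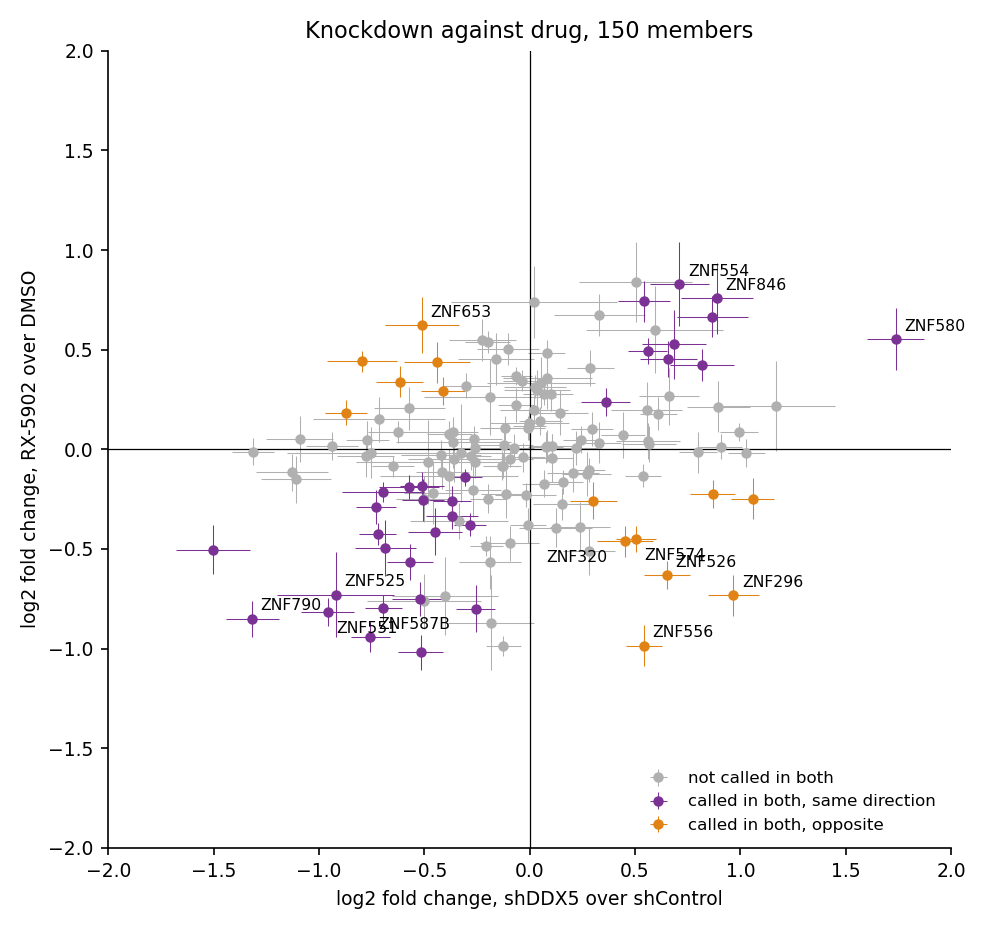
Log2 fold change of RX-5902 over DMSO (vertical axis) against that of shDDX5 over shControl (horizontal axis) for the 150 members, each point 1 gene with its standard errors. Purple points were called in both experiments in the same direction (22 lower, 10 higher), orange points in opposite directions (14), and grey points in at most 1 experiment; ZNF296 and ZNF556 lie lowest on the right.

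By start position the 251 annotated genes fell into 10 clusters of at least 5 genes, split where neighbouring starts were over 500 kb apart, and 138 of the members lay in them. Beside the counts by cluster stand the shares over all genes tested, 28.4% higher and 28.3% lower after knockdown. Under RX-5902 these shares were 32.2% higher and 31.9% lower. In cluster 9 (55.5 to 56.7 Mb) 7 of 10 members were called higher and none lower after knockdown, with a median log2 fold change of 0.58. Over all 10 members, the median against the shControl mean was 0.62, 0.57 and 0.49 in shDDX5 replicates 1, 2 and 3. In the shControl libraries it lay between -0.01 and 0.03. The 7 genes that rose, ZNF628, ZNF579, ZNF524, ZNF865, ZNF784, ZNF580 and ZNF581, are neighbours, all those annotated between 55.5 and 55.6 Mb. Their changes ran from 0.44 for ZNF628 to 1.74 for ZNF580. Over these 7 genes alone, the median against the shControl mean was 1.14, 0.66 and 0.58 in shDDX5 replicates 1, 2 and 3. It was thus highest in replicate 1, the library that stood apart from its replicates. ZNF865, with 20 fingers, was at 24.8, 25.8 and 24.2 CPM in shDDX5 libraries, against 16.9, 17.1 and 14.9 CPM in shControl libraries (log2 fold change 0.61; edgeR adjusted p = 0.000607). ZNF787, ZNF444 and ZNF583, which lie further along, were not called, with changes of -0.26, -0.001 and -0.19. Under RX-5902, 4 of these 7 neighbours (ZNF524, ZNF784, ZNF580 and ZNF581) were called higher and ZNF579 lower. The knockdown count of 7 higher was the same in all 15 refits with other settings or without 1 library. The rise of ZNF784 was 0.36 in place of 0.54 after a correction for gene length. With that correction, and without shDDX5 replicate 1, 1 member of the cluster was also called lower. None of the 7 has a KRAB pattern.

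Cluster 1 (2.8 to 2.9 Mb) had 4 members, and all 4 were called higher after knockdown. ZNF554 had 4.15, 4.13 and 4.28 CPM in shDDX5 libraries, against 2.49, 2.66 and 2.52 CPM in shControl libraries (log2 fold change 0.71; edgeR adjusted p = 0.00306). ZNF555 rose by 0.69, ZNF556 by 0.54 and ZNF77 by 0.30 on the log2 scale, and the call of ZNF77 was the weakest (edgeR adjusted p = 0.0469). Without shDDX5 replicate 2 or any 1 shControl replicate, and in DESeq2, 3 of the 4 were called higher. The same count of 3 was found without the expression filter, with the gene-length correction, with a replicate block and against a fold of 1.2. Under RX-5902 the cluster split, with ZNF554 and ZNF555 higher (0.83 and 0.53) and ZNF556 and ZNF77 lower (-0.98 and -0.26).

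Cluster 6 (36.2 to 37.8 Mb) held 17 members and leaned down in both experiments. After knockdown 9 were called lower and none higher, with a median log2 fold change of -0.28, and under RX-5902 11 were called lower and 1 higher, with a median of -0.26. Its median was -0.27, -0.21 and -0.30 in the shDDX5 libraries against the shControl mean, and -0.17, -0.35 and -0.25 in the RX-5902 libraries against the DMSO mean. ZNF529 (chr19:36534774-36605276) was at 24.2, 23.5 and 21.8 CPM in shDDX5 libraries and 40.1, 36.9 and 35.6 CPM in shControl libraries (log2 fold change -0.69; edgeR adjusted p = 0.000301). In the drug experiment it was at 21.6, 20.1 and 22.3 CPM in RX-5902 libraries and 35.5, 35.2 and 40.3 CPM in DMSO libraries (log2 fold change -0.79; edgeR adjusted p = 1.34e-12). ZNF850, the member with the most fingers (29), was lower by smaller amounts, at -0.28 and -0.38. ZNF345 was the member called higher under RX-5902 (0.55), and 5 members (ZNF260, ZNF383, ZNF569, ZNF570 and ZNF573) were called in neither experiment. Tested against a fold of 1.2, 5 members of the cluster were called lower in each experiment.

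Cluster 10 (57.2 to 58.5 Mb) is the largest, with 31 members, of which 4 were called higher and 11 lower after knockdown and 3 higher and 13 lower under RX-5902. The medians were -0.19 and -0.15. ZNF211 was called higher in both experiments, at 34.4, 31.1 and 28.9 CPM in shDDX5 libraries, against 20.8, 21.8 and 21.4 CPM in shControl libraries. It had 28.7, 26.6 and 27.8 CPM in RX-5902 libraries, against 21.1, 19.7 and 18.2 CPM in DMSO libraries. ZNF211 lies among the genes of the cluster that fell, and its log2 fold changes were 0.56 and 0.49. Tested against a fold of 1.2, 7 members were called lower under RX-5902, and without RX-5902 replicate 3, 5 were called higher. The knockdown count of 4 higher was 2 without shDDX5 replicate 2, without any 1 shControl replicate, without the expression filter or against a fold of 1.2.

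In cluster 4 (19.7 to 24.1 Mb), where 12 of 37 annotated genes reached the limit, 1 member was called higher and 5 lower after knockdown, and 7 higher and 1 lower under RX-5902. The test of the difference called 6 of its 12 members lower and 1 higher. ZNF738, in which no finger was found in the longest coding sequence, was at 10.7, 12.1 and 11.3 CPM in shDDX5 libraries and 22.4, 20.5 and 19.3 CPM in shControl libraries (log2 fold change -0.87; edgeR adjusted p = 0.00016). Without shControl replicate 1, 3 members of cluster 4 were called lower after knockdown, and without DMSO replicate 2, 4 were called higher under RX-5902. The remaining clusters were mixed. In cluster 7 (43.5 to 44.5 Mb) 2 of 16 members were higher and 6 lower after knockdown, or none higher and 3 lower without shControl replicate 2 or 3, and 4 were higher and 2 lower under RX-5902. ZNF224 of that cluster, known as a binding partner of the transcription factor WT1, was at 22.6, 19.2 and 18.7 CPM in RX-5902 libraries and 13, 14.2 and 15.4 CPM in DMSO libraries (log2 fold change 0.50; edgeR adjusted p = 1.94e-06). In cluster 8 (51.6 to 53.6 Mb), where all 22 members have a KRAB pattern, 5 were higher and 5 lower after knockdown, and 6 higher and 5 lower under RX-5902. Without shDDX5 replicate 1 its knockdown counts were 8 higher and 9 lower, and without shControl replicate 1 3 were lower. Cluster 3 (11.5 to 12.6 Mb) had 4 higher and 4 lower of 14 after knockdown and 5 higher and none lower under RX-5902, of which ZNF791 had the smallest p (log2 fold change 0.34; edgeR adjusted p = 1.28e-06). Its knockdown count of 4 lower was 1 or 2 when any 1 of 5 libraries was left out, shDDX5 replicates 2 and 3 and shControl replicates 1, 2 and 3, and its drug count of 5 was 3 without DMSO replicate 1. Cluster 2 (8.5 to 9.8 Mb) had 3 higher and 1 lower of 10 after knockdown, and 4 higher and 3 lower under RX-5902. Of the 12 members outside the clusters, 5 were higher and 4 lower after knockdown, and 1 was higher and 8 lower under RX-5902.

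**Figure D3:**
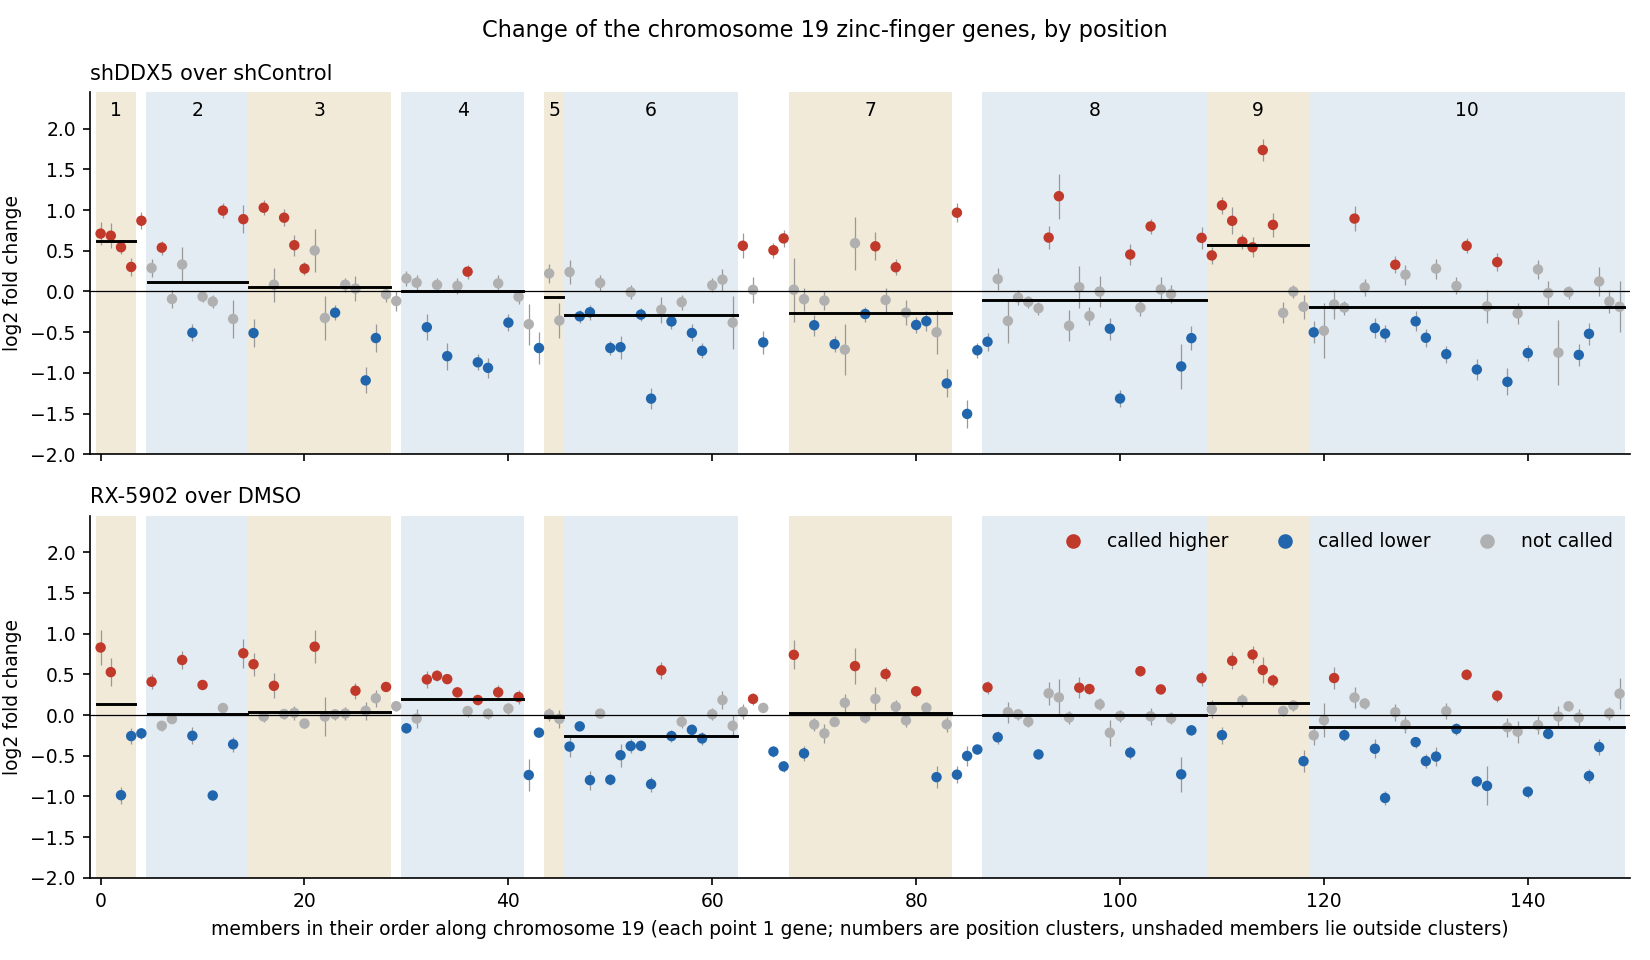
Log2 fold change (vertical axis, error bars are standard errors) of the 150 members in their order along chromosome 19 (horizontal axis), for shDDX5 over shControl above and RX-5902 over DMSO below. Shaded bands are the numbered position clusters and black bars their medians, which stand at 0.58 in cluster 9 and -0.28 in cluster 6 after knockdown, and at 0.15 and -0.26 under RX-5902.

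A KRAB pattern, a spacing of conserved residues of that domain, was found in the translated coding sequence of 119 of the 150 members and not in the other 31. Of the members with the pattern, 25 were called higher and 34 lower after knockdown (49.6% called), and 28 higher and 33 lower under RX-5902 (51.3% called). Of the members without it, 10 were higher and 11 lower after knockdown (67.7% called), and 9 higher and 14 lower under RX-5902 (74.2% called). Over protein-coding genes at 1 CPM or more, 60.4% were called after knockdown and 71.6% under RX-5902. Among ZNF genes on other chromosomes at the same limit, 57.35% with the pattern and 52.03% without it were called after knockdown. That order is the reverse of the order in the members. Under RX-5902 these shares were 54.41% with the pattern and 69.92% without it, the same order as in the members. Members without the pattern differ in other ways too, with a median transcript GC content of 57.8%, against 42.2% in members with it, and a median exon length of 4143 bases, against 5989. Within the 31, the knockdown change ran with GC content (Pearson r 0.61, Spearman rho 0.60) and against exon length (r -0.59, rho -0.60), whereas within the 119 the same r values were 0.06 and -0.07. With a correction for gene length the r with GC content in the 31 was 0.55, and without shDDX5 replicate 1 it was also 0.55. Under RX-5902 the r with GC content in the 31 was 0.26. These are descriptions across genes that share libraries, and GC content, length and cluster 9 membership cannot be told apart among so few genes. In shDDX5 replicate 1 the deviation from the other replicates ran against gene length, with a Spearman rho of -0.35 over the members and -0.38 over all genes.

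**Figure D4:**
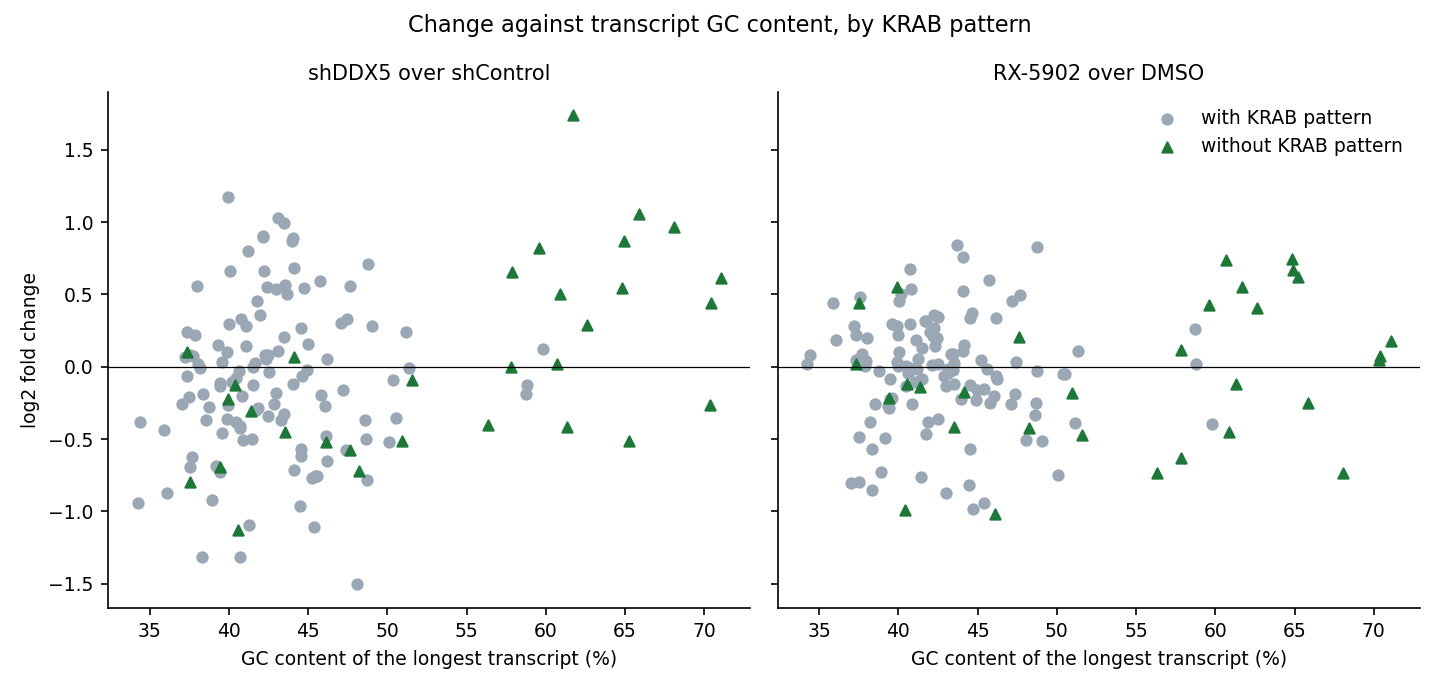
Log2 fold change (vertical axis) against GC content of the longest transcript (horizontal axis, percent) for members without (green triangles, 31) and with a KRAB pattern (grey circles, 119), for shDDX5 over shControl on the left and RX-5902 over DMSO on the right. Among the green triangles the Pearson r is 0.61 on the left and 0.26 on the right.

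Exons of 91 of the 150 members overlap exons of another annotated gene, on the opposite strand in 54 of them. The 59 members with no such overlap had 19 higher and 12 lower after knockdown, with a median log2 fold change of -0.001, whereas the 91 with an overlap had 16 higher and 33 lower, with a median of -0.20. The balance of rises and falls after knockdown thus depends on which of these members are counted. Under RX-5902 the 59 had 14 higher and 20 lower and the 91 had 23 higher and 27 lower. The shares called were 52.54% of the 59 and 53.85% of the 91 after knockdown, and 57.63% and 54.95% under RX-5902. Over protein-coding genes at 1 CPM or more, 60.4% and 71.6% were called. The part of reads from the overlapping genes in these values was not tested, and the strand setting of the counting is not given in the sources used here.

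A list of 30 genes was taken for the proteins through which KRAB zinc-finger proteins act. It also holds general chromatin genes, such as UHRF1, HDAC1 and DNMT1, so it is not limited to KRAB repression. The largest knockdown falls in it were those of UHRF1 (log2 fold change -2.15), HDAC1 (-1.31), CHD3 (-1.25) and DNMT1 (-1.22). After knockdown, 24 of the 30 were called lower and none higher, with a median log2 fold change of -0.58, beside 33.5% lower over protein-coding genes at 1 CPM or more and a median of -0.06. TRIM28, the corepressor itself, was at 372 ± 31.8 CPM in shDDX5 libraries and 377 ± 14.8 CPM in shControl libraries (SD, n = 3 each) and was not called (edgeR adjusted p = 0.872). SETDB1, the methyltransferase, averaged 54.9 ± 14.1 CPM in shDDX5 libraries, against 87.4 ± 0.442 CPM in shControl libraries (log2 fold change -0.67, SE 0.17; edgeR adjusted p = 0.011). CHD3, a remodeller of the NuRD deacetylase complex, averaged 121 ± 34.9 CPM in shDDX5 libraries, against 288 ± 2.17 CPM in shControl libraries (log2 fold change -1.25, SE 0.20; edgeR adjusted p = 0.000918). The shDDX5 libraries spread far more than the shControl libraries for both genes, with replicate 1 the lowest. In shDDX5 replicates 1, 2 and 3 SETDB1 was at 38.8, 64.4 and 61.7 CPM, and CHD3 at 80.3, 141 and 140 CPM. Every shDDX5 library still lay below every shControl library for both. Without shDDX5 replicate 1, 26 of the 30 were lower and 1 higher, and without any 1 shControl replicate 20 were lower. A correction for gene length left 20 lower and 1 higher, and a test against a fold of 1.2 left 19 lower and none higher. MPHOSPH8 and TASOR, subunits of the HUSH silencing complex, fell by 1.03 and 0.56 on the log2 scale, CBX5, a heterochromatin protein 1, by 0.47, and SMARCAD1, a remodeller that binds TRIM28, by 0.72. MORC3, an ATPase of silenced chromatin, was not called, with a change of 0.18 (edgeR adjusted p = 0.17). Under RX-5902, 15 of the 30 were lower and 7 higher, 73.3% called, beside 71.6% of protein-coding genes at 1 CPM or more, with a median of -0.11, and against a fold of 1.2 these counts were 5 and 4. The difference between the experiments was called lower for 21 of the 30 (70.0%) and higher for none. Over protein-coding genes at 1 CPM or more it was called lower for 34.1% and higher for 28.0%.

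**Figure D5:**
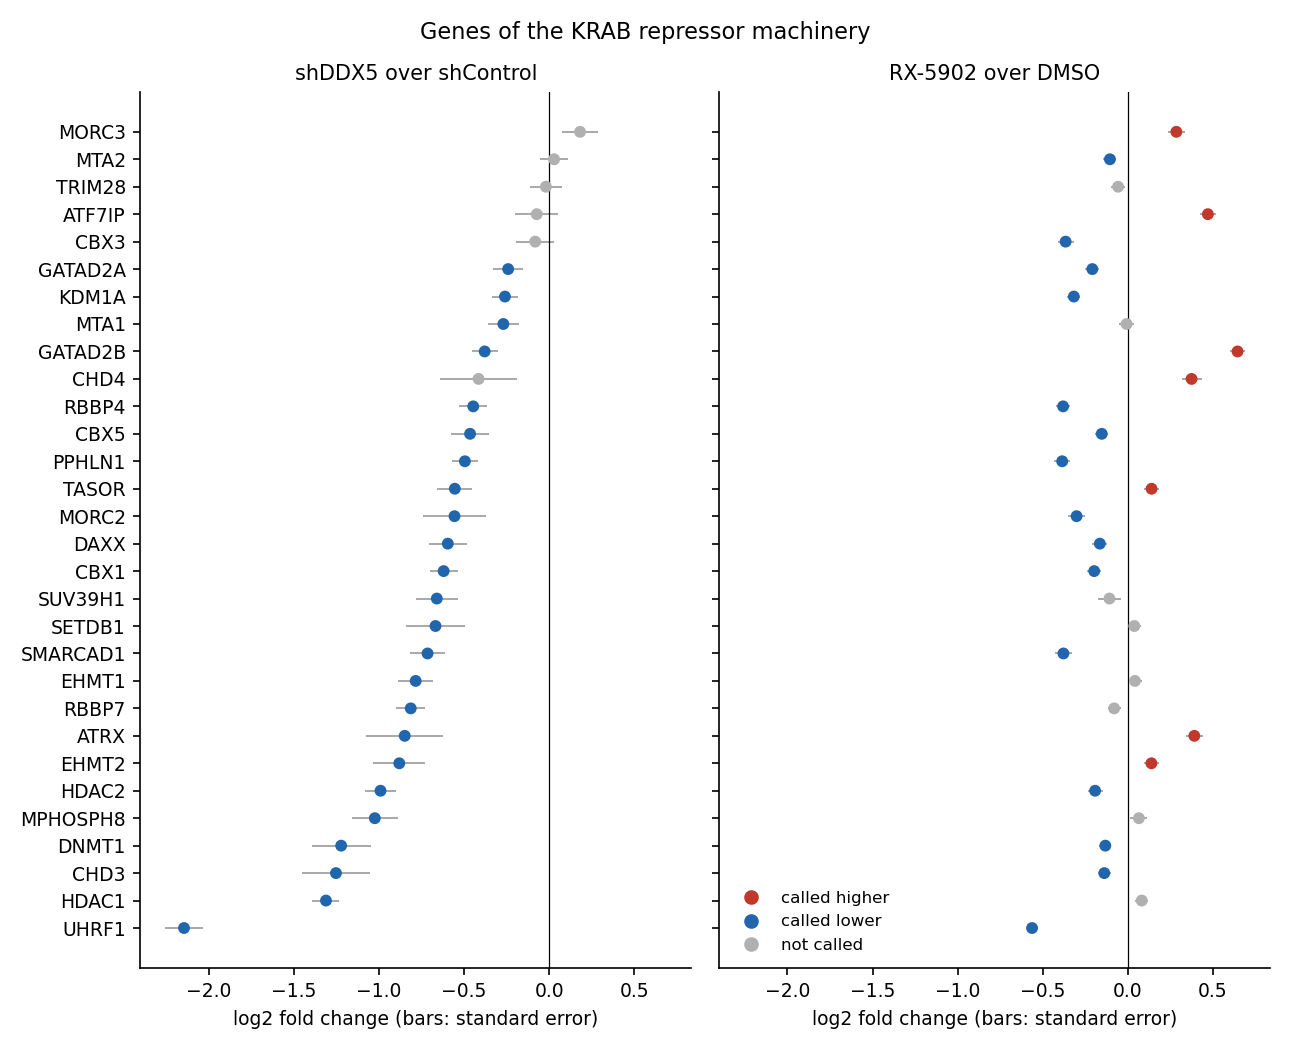
Log2 fold change (horizontal axes, bars are standard errors) of the 30 genes listed for KRAB repression, general chromatin genes included. They are sorted by the change in shDDX5 over shControl (left), with RX-5902 over DMSO on the right. On the left 24 are lower and TRIM28 lies at -0.02, while on the right 15 are lower and 7 higher.

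A few members have a documented target, and these were chosen for it after their values were seen. ZNF274, a KRAB protein that brings SETDB1 to the 3' exons of other zinc-finger genes, was at 31.3, 33.8 and 31.5 CPM in shDDX5 libraries and 33.0, 33.0 and 31.1 CPM in shControl libraries, and was not called (log2 fold change -0.01, SE 0.08; edgeR adjusted p = 0.947). It had 28.3, 26.3 and 26.8 CPM in RX-5902 libraries and 24.4, 25.8 and 25.3 CPM in DMSO libraries (log2 fold change 0.11, SE 0.06; edgeR adjusted p = 0.128). The groups thus overlap in the knockdown and lie apart by little under RX-5902. ZNF587 and ZNF417, near copies known to repress human endogenous retroviruses, were not called after knockdown (edgeR adjusted p of 0.922 and 0.143). ZNF417 had 1.14, 4.98 and 3.76 CPM in shDDX5 libraries and 6.57, 4.68 and 5.43 CPM in shControl libraries, with shDDX5 replicate 1 far below the other libraries. ZNF587 fell by 0.23 on the log2 scale under RX-5902 (edgeR adjusted p = 0.00136), at 25.3 ± 1.34 CPM in RX-5902 libraries and 29.7 ± 0.327 CPM in DMSO libraries (SD, n = 3 each). ZNF146 fell by 0.31 after knockdown (edgeR adjusted p = 0.0108), at 202, 223 and 216 CPM in shDDX5 libraries, against 264, 261 and 267 CPM in shControl libraries, and by 0.14 under RX-5902 (edgeR adjusted p = 0.00481). Without shControl replicate 3 its knockdown adjusted p was 0.0511, and without RX-5902 replicate 3 its drug adjusted p was 0.0555.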

How the data were processed

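RNA was sequenced in 12 libraries, 3 in each of 4 groups taken from the labels. The authors deposited whole-number counts of reads per gene without normalization, in 1 table per experiment. Per the submitters' processing notes, STAR 2.7.9a, Trim Galore 0.6.7, Picard 2.8.0, featureCounts of Subread 2.0.3, DESeq2 1.46.0 and R 4.4.2 were used, on GRCh38.p13. How strand and multi-mapping reads were treated, and which annotation was counted, are not given in the sources used here. In each table the line of 1 gene was wrapped and was rejoined.

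Each experiment was fitted on its 6 libraries with edgeR 4.0.16 in R 4.3.3 (default expression filter, which all 150 members passed, TMM factors, quasi-likelihood F test, two-sided), with Benjamini-Hochberg adjustment over all genes tested. Standard errors came from the F statistic. A fit of all 12 libraries tested the difference of the changes. The p-values set a difference between groups against the spread between replicates, which edgeR moderates across genes. No replicate pair agreed within sampling noise. The fits were tested on simulated counts, with 50 genes changed at each fold. The knockdown fit recovered 26% of 1.5-fold changes and 66% of 2-fold changes, and the drug fit recovered 88% and 94%. For the difference of the changes these shares were 36% and 68%. In these simulations a change of such a size was thus found less often in the knockdown fit than in the drug fit. Far fewer genes were changed in them than were called in the data, 56.7% after knockdown and 64.1% under RX-5902. With few changed genes the adjusted p is harder to pass, so these shares do not give the sensitivity of the real calls. DESeq2 1.42.0, 2 other scalings, other filters, a gene-length correction, a replicate block, a test against a fold of 1.2, other member limits and leaving out each library were alternatives.

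Gene classes, transcripts and coding sequences came from GENCODE release 29, and finger and KRAB counts are pattern matches (the longest ZNF468 transcript, used for its GC content, lies on ZNF320 exons). Coordinates are outer exon ends in the deposited tables, from 1, on GRCh38. The members and lists were chosen with earlier results of these data known. Named members are, in each experiment, the 8 called rises and 8 called falls of largest size whose groups do not overlap, the largest changes shared by or opposite between the experiments (up to 6 each), the 5 highest levels per kb, the smallest p of each cluster, and 3 genes on each side of the limit. Values are also given for DDX5, for 8 of the repressor genes, and for UHRF1, HDAC1 and DNMT1 because of their large knockdown falls. Other members named beside a cluster, a near copy or a known role were chosen after their values were seen.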

Additional observations from a re-analysis of the deposited data

Results flagged for a closer look

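A total of 6 members were called in opposite directions in the experiments among those with the largest such changes, and in each the difference of the changes was itself called by edgeR over all 12 libraries. The knockdown change minus the drug change, on the log2 scale, was 1.68 for ZNF296, 1.51 for ZNF556, 1.26 for ZNF526, 0.94 for ZNF574, 0.90 for ZNF320 and -1.15 for ZNF653. The experiments differ in agent, time and control, which cannot be told apart in these differences. The knockdown call of ZNF320 (log2 fold change 0.45) had an adjusted p between 0.0549 and 0.0804 when any 1 of 5 libraries was left out, shDDX5 replicates 2 and 3 and shControl replicates 1, 2 and 3. The knockdown call of ZNF653 (log2 fold change -0.51, edgeR adjusted p = 0.0373) was lost without shDDX5 replicate 2 or 3 or any shControl library, at adjusted p between 0.0623 and 0.1295.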

How the results depend on the processing

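The counts of members called kept within 1.5 times of the values above under DESeq2, under relative log expression and upper-quartile scaling, without the expression filter, with a 1 CPM filter, with the gene-length correction and in a fit of all 12 libraries. Tested against a fold of 1.2, 29 members were lower after knockdown, and 20 were higher and 26 lower under RX-5902. At a member limit of 5 CPM, which 114 genes reached, 23 were higher under RX-5902. Over the 59 members with no exon overlap, 19 were higher and 12 lower after knockdown, 14 higher and 20 lower under RX-5902, and 17 higher and 15 lower for the difference. Leaving out each library in turn gave 26 to 43 higher and 33 to 54 lower after knockdown, 31 to 39 higher and 41 to 47 lower under RX-5902, and 25 to 33 higher and 28 to 40 lower for the difference. Of the members called, 26 of 35 higher and 28 of 45 lower after knockdown, and 28 of 37 higher and 37 of 47 lower under RX-5902, were called without every library in turn. Deviations of same-numbered libraries from their group means correlated at 0.035 or less, so the numbers were not taken to pair libraries, and with a replicate block 31 were higher and 40 lower after knockdown, 37 higher and 47 lower under RX-5902, and 27 higher and 34 lower for the difference. Of the refits of named members that were called, 33 of 510 after knockdown and 16 of 510 under RX-5902 lost the call, and none changed direction. Among 360 refits of 24 uncalled values of named members, 37 changed sign. Counts by cluster and for the 30 repressor genes under these settings were added after the data were seen. In the fit of all 12 libraries 7 of the 30 were lower under RX-5902, and 1 member of cluster 1, in place of 2, was lower under RX-5902 in DESeq2, against a fold of 1.2, in the fit of all 12 libraries, and without RX-5902 replicate 3 or DMSO replicate 1. With clusters split at 250 kb, the 7 neighbours of cluster 9 formed a cluster of their own with a knockdown median of 0.82, and at 1000 kb clusters 9 and 10 joined, with 11 higher and 11 lower of 41 after knockdown. The cause of these differences was not tested. Depth limits the lowest members, and the 4 nearest the limit had standard errors of 0.20 to 0.34 on the log2 scale.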
